A study of Mus musculus with 70 samples.

Results

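Afp, Gpc3, Cd24a and Zhx2 were followed in the liver of male mouse offspring. The rows of these 4 genes were taken by gene name from the 54532 genes of each of 2 count tables, one for offspring aged 4 weeks and the other for offspring aged 16 weeks. Their mothers, C57BL/6 females, ate a control diet (Ctr, 15.8% of calories from fat) or a high-fat diet (HFD, 60% of calories from fat) before mating and through pregnancy. From birth on, control chow was the only diet supplied in either group, so the offspring themselves never ate the HFD. The HFD offspring were still nursed by dams that had eaten it until delivery. The younger groups held 16 Ctr and 18 HFD mice and the older groups 18 mice each, 70 in all. Livers were taken at 6 zeitgeber times (ZT, hours after lights on), namely ZT1, ZT5, ZT9, ZT13, ZT17 and ZT21. Each combination of diet and ZT held 3 mice, apart from ZT9 and ZT13 of the younger Ctr group, which held 2. Mice of the same diet, age and time point came from different litters and litters were spread at random over the time points, so mice of other time points may be littermates. For HFD replicate 3 of ZT21, the age field of the sample record gives 16 weeks, whereas its title and its column place it at 4 weeks, where it was kept.

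The liver of the fetus makes a set of proteins that the adult liver almost stops making after birth. Afp encodes alpha-fetoprotein, the main plasma protein of the fetus and a relative of albumin. Gpc3 encodes glypican 3, a heparan sulphate proteoglycan anchored to the cell surface, and Cd24a encodes a small sialoglycoprotein that is also anchored to the membrane and is found on progenitor cells, bile duct cells and several blood cells. Zhx2, a transcriptional repressor with zinc fingers and homeoboxes, is known from inbred mice in which its loss leaves Afp, H19 and Gpc3 switched on in the adult liver. The comparisons below ask how much of the fetal transcripts remained at 4 and at 16 weeks, whether the level changed with age, and whether maternal diet or time of day moved it.

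The genes lie on different chromosomes of the GRCm38 assembly. Afp (ENSMUSG00000054932) spans chr5:90490737-90508907 on the plus strand and Gpc3 (ENSMUSG00000055653) spans chrX:52272426-52613950 on the minus strand. Cd24a (ENSMUSG00000047139) spans chr10:43578284-43584265 and Zhx2 (ENSMUSG00000071757) spans chr15:57694665-57839832, both on the plus strand. Cd24a overlaps no other gene in the table, whereas antisense genes overlap the other members. The strand setting of the counting is not given in the sources used here, and without strand the reads from bases that the exons of a gene and of its antisense partner share cannot be told apart. Afp is overlapped by Gm43449, whose counts were 8.16% of those of Afp at 4 weeks and 35.9% at 16 weeks over all mice. In the GENCODE vM21 annotation the exons of Gm43449 shared 0 bases with those of Afp, and 213 of their 371 bases lay inside the Afp gene. For Zhx2 the antisense Gm16006 reached 1.25% and 1.76% of its counts, and for Gpc3 each antisense gene stayed at or below 0.558%.

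The promoter windows of Afp, of its neighbour Alb and of Gpc3 are shown because the mRNA of all 3 genes was lower at 16 than at 4 weeks. Each holds 250 bases before and 50 bases after the transcription start given by RefSeq (GRCm38.p6), written 5′ to 3′ on the strand of the gene. They are chr5:90490464-90490763 for Afp, chr5:90460620-90460919 for Alb and chrX:52613925-52614224 for Gpc3. The RefSeq table used here held no window for Cd24a or Zhx2. Capitals mark GTTAAT as well as the palindrome GTTAAC (short elements known from promoters of liver genes) and the core promoter element TATAAA in Afp, GTTAAT alone in Alb, and the GC box GGGCGG, read on the opposite strand as CCGCCC, in Gpc3.
Afp: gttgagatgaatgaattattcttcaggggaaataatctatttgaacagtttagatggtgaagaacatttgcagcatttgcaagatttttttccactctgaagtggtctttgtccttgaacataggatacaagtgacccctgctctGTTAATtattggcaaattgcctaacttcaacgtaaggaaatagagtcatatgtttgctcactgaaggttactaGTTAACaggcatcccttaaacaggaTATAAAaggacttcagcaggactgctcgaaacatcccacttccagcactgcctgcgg
Alb: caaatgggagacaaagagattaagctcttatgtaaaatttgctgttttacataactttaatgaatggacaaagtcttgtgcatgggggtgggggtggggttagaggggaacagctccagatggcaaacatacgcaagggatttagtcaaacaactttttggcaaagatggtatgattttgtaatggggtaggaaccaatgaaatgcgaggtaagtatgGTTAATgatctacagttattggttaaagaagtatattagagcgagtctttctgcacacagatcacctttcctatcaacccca
Gpc3: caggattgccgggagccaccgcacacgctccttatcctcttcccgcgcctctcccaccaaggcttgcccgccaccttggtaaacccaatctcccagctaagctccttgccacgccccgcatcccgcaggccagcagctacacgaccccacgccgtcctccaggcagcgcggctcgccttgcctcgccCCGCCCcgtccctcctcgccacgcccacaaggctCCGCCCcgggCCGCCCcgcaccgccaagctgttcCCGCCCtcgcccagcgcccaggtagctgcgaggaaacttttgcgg
Both strands were searched, and none of the marked matches overlapped another. The Afp window held GTTAAT from base 146, GTTAAC from base 219 and TATAAA from base 244. TATAAA began at position -7 from the RefSeq start and 30 bases before the start of the gene in the count table's annotation. In the Alb window GTTAAT began at base 219. The Gpc3 window held 4 matches to GGGCGG and 70.7% G and C, against 40% in the Afp and Alb windows. Of 32851 RefSeq promoter windows of this length, 7.1% held GTTAAT, 3.05% held GTTAAC, 13.6% held TATAAA and 35.7% held GGGCGG on either strand. These matches describe letters, and binding was not measured.

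Total counts per mouse ran from 14758382 to 20100545. Levels are given as CPM, the counts per 1e6 counts of a library size scaled by TMM (a normalization that assumes most genes do not change). Per mouse, Gpc3 had 4 to 105 counts, Afp 10 to 82, Cd24a 15 to 343 and Zhx2 144 to 439. Hepatocyte markers such as Alb and Apoa1 made up between 76600 and 171000 CPM in each mouse, as in liver. One library stood apart for a tissue other than liver. In HFD replicate 2 of ZT9, aged 4 weeks, 15 genes of pancreatic acinar cells (digestive enzymes such as Ctrb1, Cela2a and Cpb1) summed to 63400 CPM, against a highest sum of 54 CPM in the other 69 mice. Another pair of mice, Ctr replicate 1 of ZT17 at 4 weeks and HFD replicate 2 of ZT21 at 16 weeks, stood apart in Gpc3 and in markers of the liver surface. Values that these libraries moved most are given with and without them.

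All 4 members were detected in every mouse at both ages, at very different levels. Per kilobase of transcript, Zhx2 was the most abundant at 4 weeks with 3.48 ± 0.519 CPM per kb (SD, n = 34), followed by Cd24a with 1.69 ± 1.17, Afp with 0.750 ± 0.295 and Gpc3 with 0.667 ± 0.409. The order was the same at 16 weeks, with 3.73 ± 0.595 CPM per kb for Zhx2 (SD, n = 36), 0.915 ± 0.347 for Cd24a, 0.537 ± 0.147 for Afp and 0.338 ± 0.241 for Gpc3. At 4 weeks Afp and Gpc3 differed by less than the SD of either, and Cd24a exceeded Afp by less than its own SD. Without the library with pancreatic transcripts Cd24a stood at 1.5 ± 0.426 CPM per kb (SD, n = 33), and the gap to Afp was then larger than the SD of either. At 16 weeks the gaps between neighbours were larger than the smaller of their 2 SDs. The median gene stood at 1.82 CPM per kb at 4 weeks and 1.79 at 16 weeks. Zhx2 lay above it and Cd24a, Afp and Gpc3 below it at both ages, Cd24a at 4 weeks by less than its SD. Alb, the adult counterpart of Afp, reached 47100 CPM per kb at 4 weeks and 33900 at 16 weeks, which is 62800 and 63100 times the level of Afp.

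**Figure D1:**
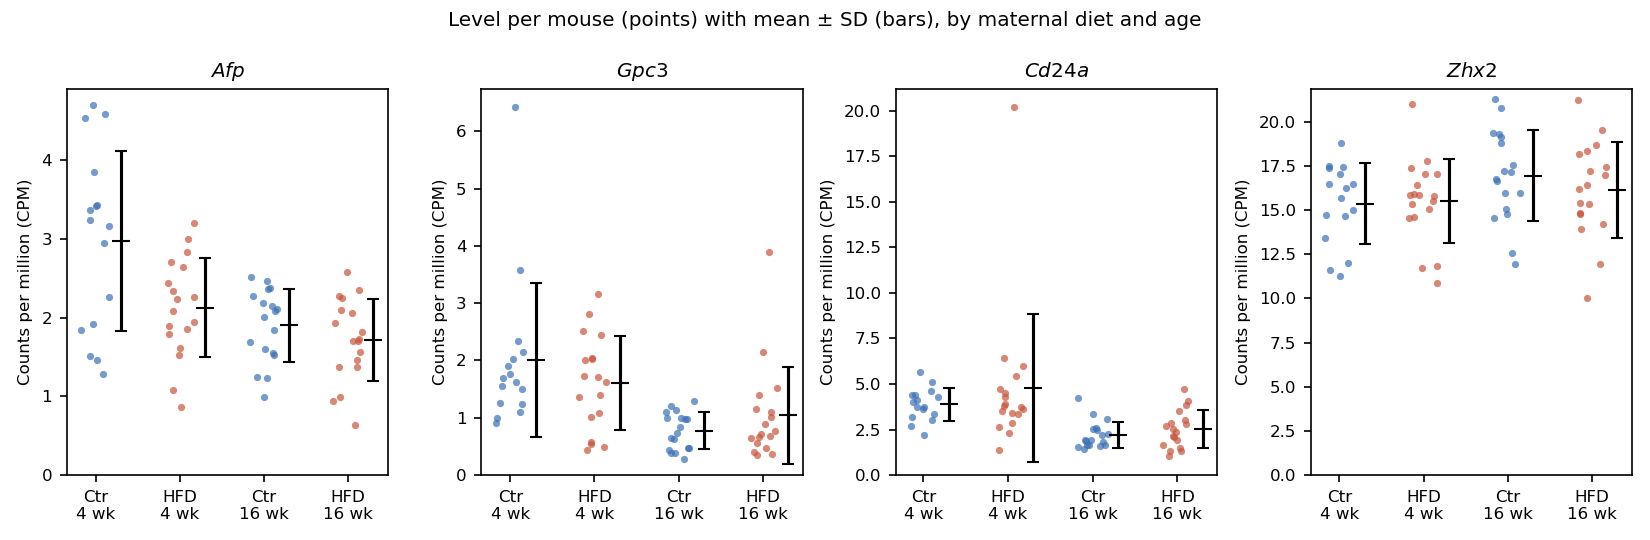
CPM of each mouse (points) by maternal diet and age, with the mean and SD of each group (bars) beside the points, on a linear axis that starts at 0. The mice at 16 weeks sit lower than those at 4 weeks for Afp, Gpc3 and Cd24a and overlap with them, the Zhx2 groups cover the same range, and the HFD mouse at 20.2 CPM in the Cd24a panel is the library with pancreatic transcripts.

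From 4 to 16 weeks the fetal transcripts Afp, Gpc3 and Cd24a fell and Zhx2 rose slightly. Age was tested in a fit of all 70 mice, averaged over diets and ZT (edgeR quasi-likelihood test, Benjamini-Hochberg adjustment over 16444 genes). The whole table moved widely between the ages. The share of genes called was 63.3% in either direction, 34% lower and 29.2% higher at 16 weeks, so 3 of 4 members lower and 1 of 4 higher is to be read against these shares. Age and anything else that may have differed between the 2 tables cannot be told apart. In whole liver, fewer cells of a type and less RNA per cell cannot be told apart either.

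Afp ranged from 0.86 to 4.71 CPM at 4 weeks (median 2.30, n = 34) and from 0.636 to 2.58 CPM at 16 weeks (median 1.83, n = 36). Of the 34 younger mice 15 lay above the highest older mouse, and 30 of the 36 older mice lay below the younger median. The mean was lower at 16 weeks at each of the 6 ZT. In the fit Afp fell by 0.45 on the log2 scale (SE 0.097, edgeR adjusted p = 4.36e-05). The antisense gene Gm43449, whose exons share 0 bases with those of Afp in GENCODE vM21, a release other than the one used for counting, went the other way, from a median of 2 counts per mouse at 4 weeks (0 to 17) to 10 counts at 16 weeks (0 to 33). For the sum of the counts of both genes the log2 fold change was -0.094 and the edgeR adjusted p = 0.436.

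The other genes of the albumin family, which lie beside Afp except for Gc, a vitamin D binding protein on the same chromosome, were also lower at 16 weeks, so 4 of 4 members of the family fell, where 34% of all genes were lower. The log2 fold changes were -0.60 for Afm, which encodes afamin, -0.48 for Alb and -0.28 for Gc. Alb had a mean of 110000 ± 14700 CPM at 4 weeks (SD, n = 34) and 79300 ± 9250 CPM at 16 weeks (SD, n = 36). The fall of Alb and of Afp was thus of a similar size on the log2 scale.

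Gpc3 showed a larger decrease. Its level ran from 0.442 to 6.43 CPM at 4 weeks (median 1.66) and from 0.276 to 3.89 CPM at 16 weeks (median 0.750). Of the 36 older mice 34 lay below the median of the younger ones, although only 1 younger mouse exceeded the highest older mouse. The mean was lower at 16 weeks at 5 of the 6 ZT, and at ZT21 it was 1.497 CPM at 4 weeks and 1.503 CPM at 16 weeks. The older mice of ZT21 included HFD replicate 2 at 3.89 CPM, and the medians at ZT21 were 1.58 CPM at 4 weeks and 0.886 CPM at 16 weeks. The log2 fold change was -0.98 (SE 0.17, edgeR adjusted p = 1.01e-06), and the mean at 16 weeks was 0.507 of that at 4 weeks. Among the 6 glypicans, 4 were measured well enough to be tested, and 3 of these fell while 1 rose, beside 34% and 29.2% of all genes. Gpc6 fell by 1.24 on the log2 scale and Gpc4 by 0.48, whereas Gpc1 rose by 1.69, from 5.18 ± 2.19 to 17 ± 5.17 CPM (SD, n = 34 and n = 36).

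Cd24a fell by a comparable amount. Levels ran from 1.35 to 20.2 CPM at 4 weeks (median 3.76) and from 1.05 to 4.70 CPM at 16 weeks (median 2.15), and 32 of the 36 older mice lay below the younger median. The log2 fold change was -0.86 (SE 0.14, edgeR adjusted p = 2.32e-07). Without the mouse that carried pancreatic transcripts it was -0.67 with an edgeR adjusted p = 4.76e-07. Siglecg and Selp, which encode lectins that bind CD24, were not called. Siglecg stood at 0.111 and 0.109 CPM and Selp at 1.47 and 1.34 CPM at 4 and 16 weeks.

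The repressor Zhx2 moved little. It ranged from 10.9 to 21.0 CPM at 4 weeks (median 15.8) and from 10.0 to 21.3 CPM at 16 weeks (median 16.7), and the 2 ages overlapped almost fully. Its log2 fold change was 0.11 (SE 0.042, edgeR adjusted p = 0.0222), with a 95% interval from 0.023 to 0.19. The mean was higher at 16 weeks at 5 of the 6 ZT, and the call was lost when the mice of replicate 1 were left out (0.082, edgeR adjusted p = 0.206). Its relatives, Zhx1 and Zhx3, encode proteins of the same build. Zhx1 fell by 0.53 on the log2 scale (edgeR adjusted p = 4.88e-13), from 49.3 ± 10.6 to 34.1 ± 3.95 CPM (SD, n = 34 and n = 36). Zhx3 had a log2 fold change of -0.023 and an edgeR adjusted p = 0.733.

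**Figure D2:**
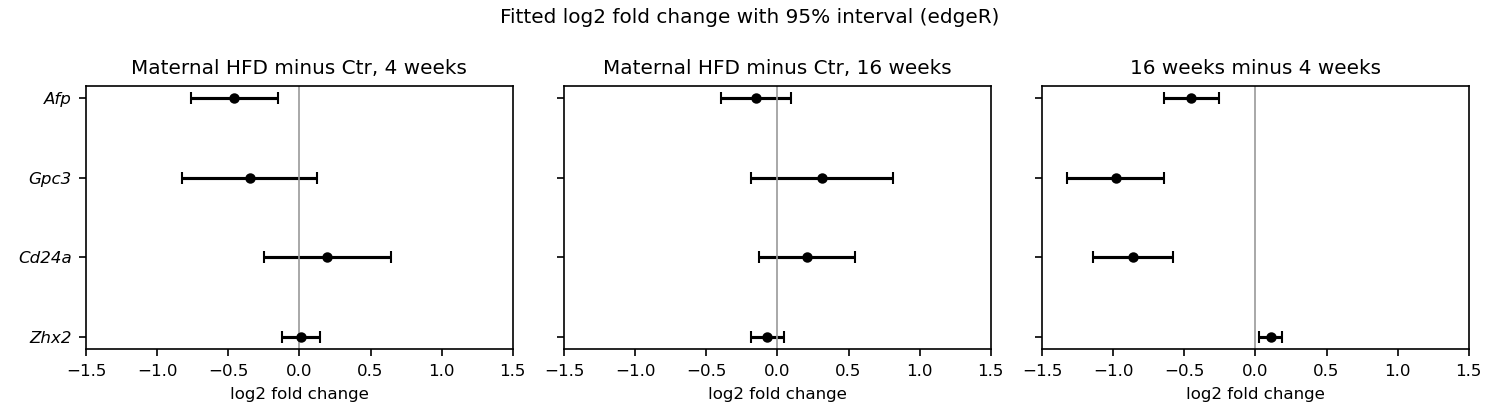
Fitted log2 fold changes (points) with 95% intervals (bars) from edgeR for maternal HFD minus Ctr at 4 weeks, at 16 weeks, and for 16 minus 4 weeks. The age intervals of Afp, Gpc3 and Cd24a lie below 0 and that of Zhx2 just above it. For diet the only interval that does not reach 0 is that of Afp at 4 weeks, which was not called after adjustment over all genes.

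Genes reported to respond to Zhx2, listed without regard to the direction of that response, did not move in a single direction with age. All 8, Afp and Gpc3 among them, were tested and called, with 5 lower and 3 higher at 16 weeks, where 34% of all genes were lower and 29.2% higher. Their median log2 fold change was -0.72, beside -0.034 over all genes. H19, an imprinted noncoding RNA, fell by 3.99 and Cyp2a4, a steroid hydroxylase that is higher in females, fell by 3.68. At 16 weeks H19 stood at 27.4 CPM in HFD replicate 2 of ZT21, where the other 35 mice had a median of 0.0636 CPM. Leaving out the mice of a replicate number or 1 of the 3 that stood apart gave H19 values between -4.71 and -3.45. Mup20, a major urinary protein (darcin) made by adult males, rose by 2.02 from 612 ± 635 to 2140 ± 719 CPM (SD, n = 34 and n = 36).

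Of 14 factors known to act on the Afp gene, 4 rose and 1 fell, with a median log2 fold change of -0.0081 beside -0.034 over all genes. The share called was thus 5 of 14, beside 63.3% of all genes. Cebpb, a leucine zipper activator, fell by 0.69 (SE 0.082, edgeR adjusted p = 3.62e-11). The tumour suppressor Trp53, a repressor of Afp, rose by 0.28. Zbtb20, the zinc finger repressor of Afp after birth, was not called at 109 ± 47.3 and 101 ± 23.3 CPM (SD, n = 34 and n = 36, edgeR adjusted p = 0.375).

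Of 16 other genes of the fetal liver, 8 did not pass the filter, among them Dlk1, Igf2, Lin28b and Hmga2. Of the 8 that passed, 7 fell and 1 rose, beside 34% lower and 29.2% higher of all genes, and their median log2 fold change was -1.08, beside -0.034 over all genes. Igf2bp3, a fetal RNA binding protein, fell by 5.03 (SE 0.21), from 3.22 ± 1.26 to 0.0958 ± 0.102 CPM (SD, n = 34 and n = 36). Prom1, a membrane protein of progenitor and duct cells, fell by 2.34, from 4.11 ± 3.63 to 0.749 ± 0.406 CPM (SD, n = 34 and n = 36). Peg3, Cdkn1c and Scd2 fell by 0.79, 0.62 and 0.49 on the log2 scale.

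**Figure D3:**
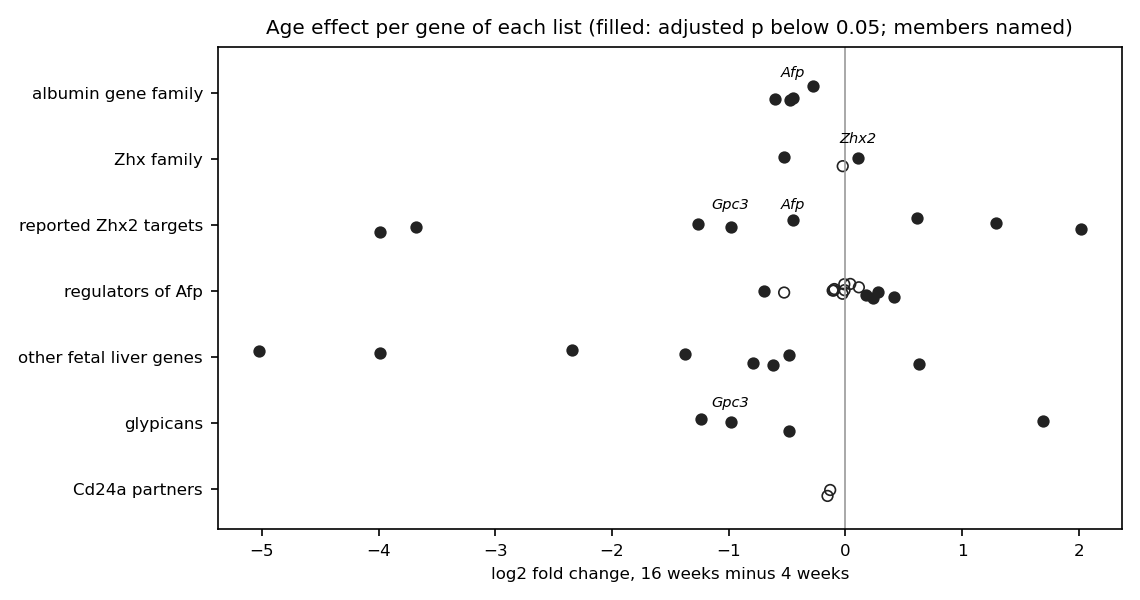
Log2 fold change from 4 to 16 weeks for each gene of 7 lists that passed the filter, with filled points for an edgeR adjusted p below 0.05 and the members named. Afp sits with its 3 relatives to the left of 0, Zhx2 just to the right of it, and the farthest point on the left is Igf2bp3.

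Some markers of cells other than hepatocytes were called for age too, where 63.3% of all genes were called, 34% lower and 29.2% higher. Of 7 markers of stellate cells 5 were lower at 16 weeks, with Col3a1 at -2.34 and Col1a1 at -2.23 on the log2 scale, and their summed level went from between 286 and 586 CPM per mouse to between 150 and 405. All 5 markers of Kupffer cells were lower, and their sum went from between 235 and 552 to between 112 and 329 CPM. Of 7 cholangiocyte markers tested, 3 fell and 1 rose, and their sum went from between 24.2 and 119 to between 22.7 and 83.2 CPM. None of the 5 mesothelial markers was called. Among blood cells, 2 of 3 neutrophil markers tested were higher and none lower, 1 of 6 B cell markers was higher and 1 lower, and 2 of 7 erythroid markers were higher and 3 lower. The hepatocyte list gave 4 lower and 3 higher of 8. The part of these cells in the fall of Gpc3 and Cd24a was not tested.

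Maternal diet moved none of the members past the threshold at either age. At 4 weeks edgeR called 1 of 16776 genes (0.00596%) and at 16 weeks 16 of 17409 (0.0919%), and 0 of 4 members were among them. At an unadjusted p below 0.05 there were 1577 and 2026 genes, and DESeq2 called 48 and 117 genes. None of the listed relatives, regulators, targets or fetal genes was called for diet either.

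The member nearest to a diet difference was Afp at 4 weeks. Ctr mice had between 1.29 and 4.71 CPM (median 3.21, n = 16) and HFD mice between 0.86 and 3.21 CPM (median 2.17, n = 18). Of the 18 HFD mice 17 lay below the Ctr median, 2 lay below the lowest Ctr mouse, and the HFD mean was lower at 5 of the 6 ZT. The log2 fold change was -0.46 (95% interval -0.77 to -0.15), with an unadjusted p = 0.00475 and an edgeR adjusted p = 0.355. The gap was widest at ZT9, where the 2 Ctr mice had 4.59 and 4.71 CPM and the 3 HFD mice between 1.52 and 2.27 CPM. Without ZT9 the log2 fold change was -0.31 and its unadjusted p in edgeR was 0.0634. At 16 weeks Afp had means of 1.90 ± 0.462 CPM on Ctr and 1.72 ± 0.524 CPM on HFD (SD, n = 18 each), with a log2 fold change of -0.15 (95% interval -0.40 to 0.098, edgeR adjusted p = 0.699).

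Gpc3 had means of 2.00 ± 1.35 CPM on Ctr and 1.61 ± 0.822 CPM on HFD at 4 weeks (SD, n = 16 and n = 18). This gave a log2 fold change of -0.35 (95% interval -0.83 to 0.13, edgeR adjusted p = 0.619). At 16 weeks the difference had the other sign, with 0.777 ± 0.322 CPM on Ctr and 1.04 ± 0.849 CPM on HFD (SD, n = 18 each) and a log2 fold change of 0.31 (95% interval -0.19 to 0.81, edgeR adjusted p = 0.682). Both values rested in part on few mice. Without the Ctr mouse at 6.43 CPM the change at 4 weeks was -0.19, and without the HFD mouse at 3.89 CPM the change at 16 weeks was 0.16. Without all mice of replicate 1 the change at 4 weeks was -0.088, and without ZT21 the change at 16 weeks was 0.0081.

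The Cd24a means were 3.89 ± 0.893 CPM on Ctr and 4.78 ± 4.05 CPM on HFD at 4 weeks (SD, n = 16 and n = 18), and the spread on HFD came from the library with pancreatic transcripts, at 20.2 CPM where the next HFD mouse had 6.43 CPM. Its log2 fold change was 0.20 (95% interval -0.25 to 0.64, edgeR adjusted p = 0.773) and became -0.023 without that library. At 16 weeks the means were 2.20 ± 0.738 and 2.52 ± 1.03 CPM (SD, n = 18 each), with a log2 fold change of 0.21 (95% interval -0.13 to 0.55, edgeR adjusted p = 0.689). It was 0.085 without ZT17 and 0.36 without replicate 3, and not called in either.

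Zhx2 gave the narrowest intervals. It had 15.4 ± 2.28 CPM on Ctr and 15.5 ± 2.38 CPM on HFD at 4 weeks (SD, n = 16 and n = 18), a log2 fold change of 0.012 (95% interval -0.12 to 0.15, edgeR adjusted p = 0.963). At 16 weeks it had 16.9 ± 2.58 and 16.1 ± 2.71 CPM (SD, n = 18 each), a log2 fold change of -0.073 (95% interval -0.19 to 0.043, edgeR adjusted p = 0.682). This value was -0.14 with library totals in place of TMM (edgeR adjusted p = 0.251) and -0.013 without ZT9.

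Whether the diet difference itself changed between the ages was tested as an interaction in the fit of 70 mice. It was called for 0.158% of genes in edgeR (26 of 16444, with 1768 at an unadjusted p below 0.05) and for 0 of 4 members. The largest value among the members was that of Gpc3, 0.64 on the log2 scale (95% interval -0.051 to 1.33, unadjusted p = 0.0688, edgeR adjusted p = 0.513). It was 0.38 without the 3 mice that stood apart, and between 0.30 and 0.86 when the mice of a replicate number or 1 of those 3 mice were left out.

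Differences by time of day were called for Afp and Zhx2 at both ages. The 6 ZT differed by edgeR for 28.3% of genes at 4 weeks and 35.9% at 16 weeks, and for the same 2 of 4 members at each age. Afp was lowest at ZT13, the first time point after lights off, in all 4 groups. At 4 weeks the 5 mice at ZT13 had 1.42 ± 0.449 CPM (SD) and the 6 mice at ZT21 had 3.02 ± 0.496 CPM (SD). At 16 weeks the 6 mice at ZT13 had 1.18 ± 0.397 CPM (SD) and the 6 mice at ZT9 had 2.20 ± 0.364 CPM (SD). The fitted range between the lowest and highest ZT was 1.05 on the log2 scale at 4 weeks (edgeR adjusted p = 0.0290) and 0.90 at 16 weeks (edgeR adjusted p = 0.0172). A test of a 24 h cosine wave in place of the 6 time points gave in edgeR an adjusted p = 0.0889 at 4 weeks and 0.418 at 16 weeks. For the sum of Afp and Gm43449 counts the range at 16 weeks was 0.50 (edgeR adjusted p = 0.426). The call for Afp was lost at 4 weeks without the mice of replicate 2 or 3 (edgeR adjusted p = 0.110 and 0.290), and at 16 weeks without those of replicate 1 or 3 (edgeR adjusted p = 0.189 and 0.249). With no filter on low genes it was lost at both ages (edgeR adjusted p = 0.0503 and 0.0696).

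Zhx2 was lowest late in the light phase. Its mean at ZT9 was 11.9 ± 0.943 CPM at 4 weeks (SD, n = 5) and 13.8 ± 2.50 CPM at 16 weeks (SD, n = 6). At 4 weeks the highest mean was at ZT21, 17 ± 0.763 CPM (SD, n = 6), and at 16 weeks it was at ZT1, 19.6 ± 1.12 CPM (SD, n = 6). The fitted range was 0.51 at both ages (edgeR adjusted p = 0.0130 at 4 weeks and 4.03e-04 at 16 weeks), and the call at 4 weeks was lost when the mice of replicate 1 (0.61) or replicate 2 (0.42) were left out and with no filter (0.52, edgeR adjusted p = 0.108). Ctr mice at 16 weeks departed from this order, with their lowest mean at ZT5, 13.8 ± 2.61 CPM (SD, n = 3). A 24 h cosine shared by both diets peaked at 21.1 h at 4 weeks and at 20.8 h at 16 weeks, with amplitudes of 0.19 and 0.18 on the log2 scale. By the Bayesian information criterion a shared rhythm had a weight of 0.718 at 4 weeks, above the limit of 0.6 used for assignment, and of 0.562 at 16 weeks, below it. Of all genes 26.1% were assigned a shared rhythm and 46.9% no rhythm at 4 weeks, against 23.8% and 39.8% at 16 weeks. Afp was assigned to no model at 4 weeks (weight of a shared rhythm 0.517) and to the model with no rhythm at 16 weeks (weight 0.728). Cd24a at 4 weeks (0.803) and Gpc3 at 16 weeks (0.629) were assigned to no rhythm too, and each had no model assigned at the other age.

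**Figure D4:**
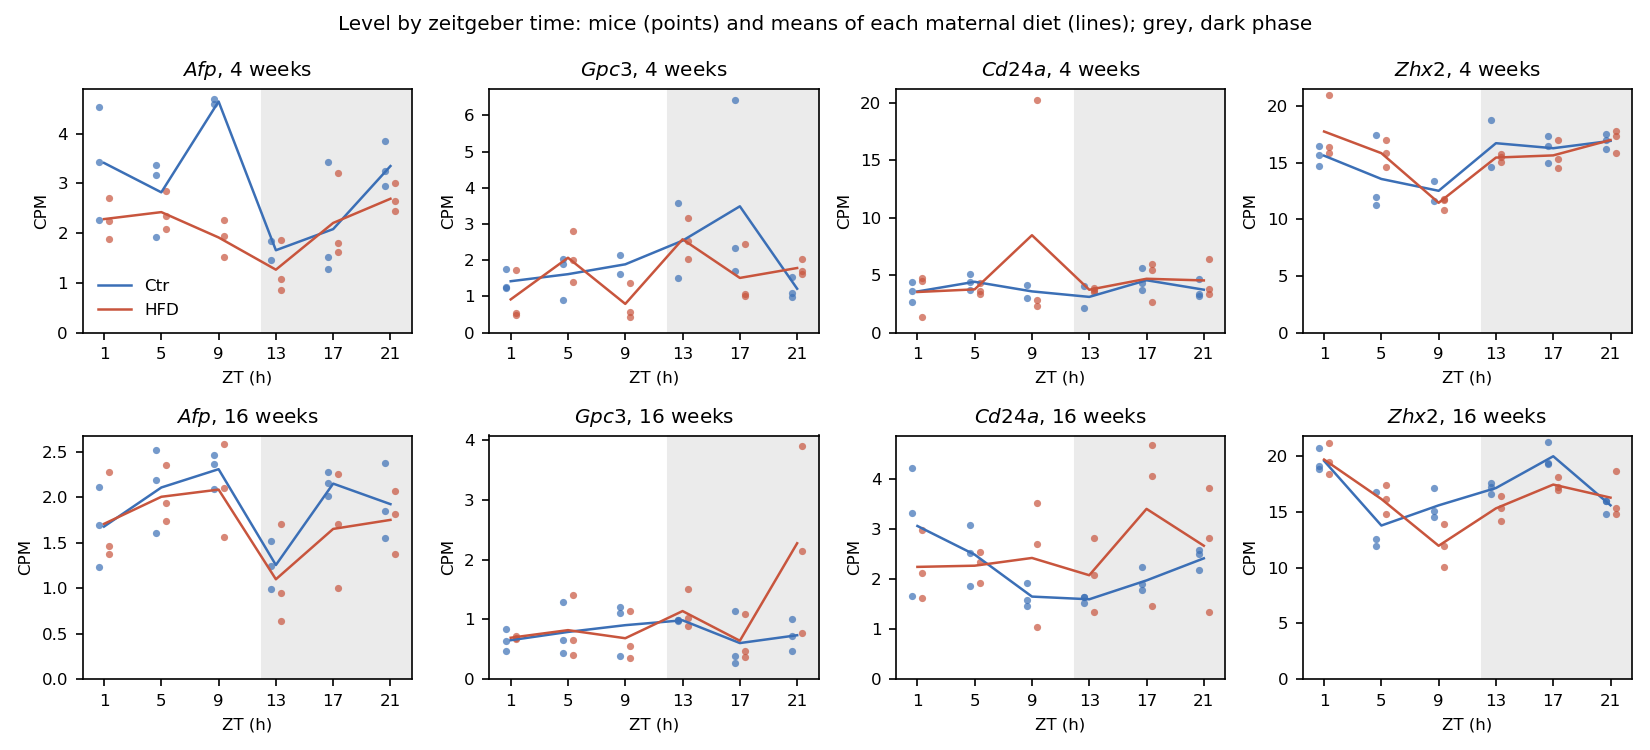
CPM of each mouse (points) and mean of each maternal diet (lines) against ZT in hours, at 4 weeks (top) and 16 weeks (bottom), on linear axes from 0 that differ between panels. Grey marks the dark phase, where Afp has its lowest means at ZT13 in all panels, whereas the lowest Zhx2 means lie in the light phase.

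Gpc3 and Cd24a were not called for ZT. The fitted range of Gpc3 was 1.17 at 4 weeks (edgeR adjusted p = 0.0804) and 1.22 at 16 weeks (edgeR adjusted p = 0.116). At 4 weeks it was called by DESeq2 (adjusted p = 0.0337), by edgeR with no filter (adjusted p = 0.0237) and by edgeR with a replicate block (adjusted p = 0.0421). Without the HFD mouse at 3.89 CPM, which was sampled at ZT21, the range at 16 weeks was 0.76. Cd24a had ranges of 0.90 (edgeR adjusted p = 0.384) and 0.56 (edgeR adjusted p = 0.462), and without the library with pancreatic transcripts the range at 4 weeks was 0.56. No member was called by edgeR for a difference in rhythm between the diets. The interaction of diet with a 24 h wave was called by edgeR for 0% of genes at each age (378 and 2094 genes at an unadjusted p below 0.05), and DESeq2 called 0 and 62 genes. DESeq2 gave no adjusted p for any member at 16 weeks and none for Cd24a at 4 weeks. For Gpc3 at 16 weeks the difference was 0.80 on the log2 scale and 0.42 without the HFD mouse at 3.89 CPM.

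Across mice of an age, no relation between the levels of 2 members passed the threshold. The 6 pairs were compared at each age after subtracting the mean of each diet and ZT, with p from 100000 permutations within diet and ZT and adjustment over 12 relations. The relation of Afp with Zhx2 at 4 weeks was the nearest to the threshold, with Pearson's r = -0.357 (permutation p = 0.0709, adjusted p = 0.692) and Spearman's rho = -0.356 (permutation p = 0.0773, adjusted p = 0.621) over 34 mice. Without the 2 mice farthest from the median of Zhx2 it was -0.224. At 16 weeks the same pair gave r = -0.0661 (permutation p = 0.737) and rho = -0.138 (permutation p = 0.490) over 36 mice. For the other 10 relations r lay between -0.179 and 0.342, and 0 of 12 were past the threshold.

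The genes most like each member were ranked by the lower of the 2 Pearson correlations of log2 CPM across the 34 mice of 4 weeks and across the 36 mice of 16 weeks, among 12046 genes. These values describe libraries that share depth and composition, and mice of the same ZT also share time of day. They carry no test. Afp was closest to Hmgcs1, an enzyme of cholesterol synthesis (r = 0.602 at 4 weeks and 0.578 at 16 weeks), followed by Agk, Sgk2, Adh4 and Amdhd1. Zhx2 was closest to Diaph1 (0.739 and 0.677) and to Nfil3, a clock-controlled repressor (0.668 and 0.698), followed by Abtb2 and Fam222b among others. Gpc3 was closest to Prickle2 (0.536 and 0.569), and Timp2, Efemp1, Fmod and Anxa1 followed, several of which encode matrix proteins. Cd24a was closest to the neurotrophin receptor gene Ntrk2 (0.544 and 0.557) and to Epcam, a marker of bile duct epithelium (0.576 and 0.487), followed by Acta2, Chst2 and Sparcl1. The library with pancreatic transcripts had the highest Ntrk2, Epcam and Chst2 of its age as well as the highest Cd24a, and without it the values at 4 weeks were 0.305 for Ntrk2, 0.356 for Epcam and 0.189 for Chst2.

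Gpc3 moved with markers of the mesothelium, the cell layer that covers the liver, at 16 weeks. The summed level of 5 such markers (Msln, Upk3b, Upk1b, Wt1 and Lrrn4) and Gpc3 had r = 0.795 across 36 mice after subtracting the mean of each diet and ZT (permutation p = 3e-05, adjusted p = 0.00192 over 64 relations of the members with 8 marker lists) and rho = 0.765 (permutation p = 3e-05, adjusted p = 0.00192). It was 0.748 without the 2 mice farthest from the median of Gpc3. At 4 weeks r was 0.211 (permutation p = 0.311, adjusted p = 0.893) and rho was 0.243 (permutation p = 0.245, adjusted p = 0.744) across 34 mice, and r was 0.143 without the 2 farthest mice. Of the 8 lists, Gpc3 at 4 weeks had its highest r with the bile duct list, 0.545 (permutation p = 0.0128, adjusted p = 0.205; rho = 0.470, permutation p = 0.0235), and 0.546 without the 2 farthest mice. With the stellate list at 16 weeks r was 0.562 (permutation p = 0.0128, adjusted p = 0.205; rho = 0.476, permutation p = 0.0237), and 0.455 without the 2 farthest mice. The mouse with the highest Gpc3 at each age also had the highest mesothelial sum. Ctr replicate 1 of ZT17 at 4 weeks had 6.43 CPM of Gpc3 and a sum of 19.4 CPM, where the next sum was 9.23. HFD replicate 2 of ZT21 at 16 weeks had 3.89 CPM and a sum of 18 CPM, where the next sum was 9.12, and it also had the highest stellate sum of its age, 405 CPM, whereas the stellate sum of the Ctr mouse, 290 CPM, ranked 33 of 34. The fall of Gpc3 with age was -0.95 on the log2 scale without these 2 mice and the library with pancreatic transcripts (edgeR adjusted p = 3.70e-07).

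For Cd24a the nearest list was that of bile duct markers. The sum of this list, here and for Gpc3, came mostly from Spp1, with a mean of 51.4 CPM at 4 weeks and 35.4 CPM at 16 weeks. Sox9, the next highest marker, had 3.61 and 5.66 CPM. At 16 weeks r was 0.667 across 36 mice (permutation p = 0.00187, adjusted p = 0.0598) and rho was 0.607 (permutation p = 0.00291, adjusted p = 0.0931), and r was 0.583 without the 2 farthest mice. At 4 weeks r was 0.531 across 34 mice (permutation p = 0.05, adjusted p = 0.423) and rho was 0.422 (permutation p = 0.0560, adjusted p = 0.398), and r was 0.400 without the 2 farthest mice. The library with pancreatic transcripts had a bile duct sum of 55.9 CPM, within the range of its group and mostly from Spp1 (41.3 CPM), although its Epcam (5.25 CPM) and Cldn7 (1.65 CPM) were the highest of the 34 mice, with 4.01 CPM of B cell and 0.944 CPM of neutrophil markers. These 64 relations were added after the values were seen, and 1 of 64 was past the threshold. The part of these cells in the levels of Gpc3 and Cd24a was not tested.

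**Figure D5:**
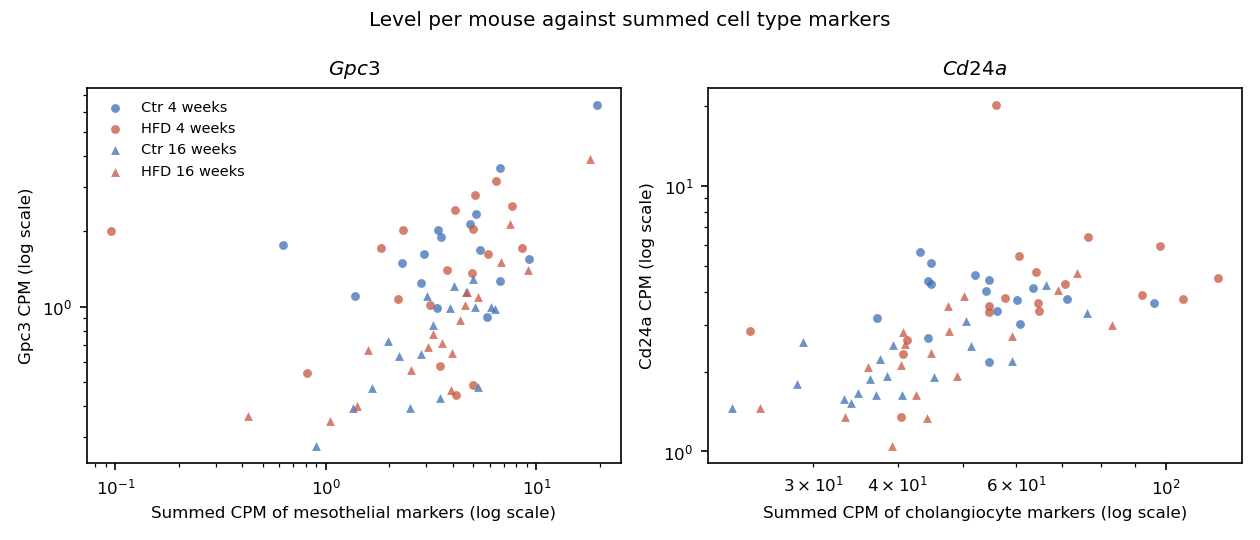
Gpc3 against the summed CPM of mesothelial markers and Cd24a against that of cholangiocyte markers, for each mouse, on log axes, with circles for 4 weeks and triangles for 16 weeks. The mice with the highest Gpc3 at each age lie at the far right, while the HFD mouse with 20.2 CPM of Cd24a lies above the others at a middle level of bile duct markers.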

How the data were processed

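Liver mRNA of 70 mice was poly-T selected and sequenced. Per the labels and methods, the authors mapped reads with HISAT2 2.0.5 to GRCm38 and counted uniquely mapped reads with featureCounts 1.5.0-p3 on Ensembl 94. The deposited values are raw counts, 1 table per age; 2 count columns that match no sample were not used. Genes were kept where 50% or more of the mice of each diet (and age) had any count. edgeR 4.0.16 (R 4.3.3; TMM, quasi-likelihood F test, Benjamini-Hochberg adjustment over all genes, threshold 0.05) tested diet with ZT as a factor, ZT with diet, diet by a 24 h cosine and sine, and age and diet by age in 1 fit of both tables. DESeq2 1.42.0 was an alternative. Correlations used log2 CPM with a prior count of 2 and marker sums plus 0.5 CPM. Named genes were the members, the 3 largest called age effects per list and the 5 genes most like each member, and 2 genes that this rule names are not reported here; the other list genes were named after their values were seen. Members and lists were chosen with earlier results of these data known, and the pancreatic list after that library was seen. Fits were tested on simulated data. Depth was 14758382 to 20100545 counts per mouse.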

Additional observations from a re-analysis of the deposited data

How the results depend on the processing

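Of 1085 alternatives over 81 results, 948 kept direction and side of the threshold (or, with no test, moved by less than the spread), 130 did not, and 7 fits of members with DESeq2 gave no adjusted p. The falls of Afp, Gpc3 and Cd24a with age kept both under every alternative run, except that the sum of Afp and Gm43449 counts was not called (-0.094, edgeR adjusted p 0.436). That sum adds a second gene whose median count was higher at 16 weeks, so it does not measure Afp alone. The edgeR count of genes called for diet at 4 weeks was 1. It was 3 with DESeq2 size factors and with a GC covariate, 2 with filterByExpr, 251 with no filter, 48 with DESeq2, and 0 with the replicate block and without each ZT. At 16 weeks it was 16, and it was 132 with library totals only, 27 with filterByExpr, 127 with no filter, 117 with DESeq2, 39 with a GC covariate and 50 with that and the replicate block. Without a ZT it was 0 (ZT1, ZT17 and ZT21), 1 (ZT5), 32 (ZT9) and 9 (ZT13). Leaving out mice gave 0 to 19 genes at 4 weeks and 0 to 50 at 16 weeks. Differences in rhythm were called for 20 genes at 4 weeks and 3 at 16 weeks with no filter, and for 62 at 16 weeks with DESeq2. The interaction of diet and age was called for 26 genes, and for 90 with library totals only, 52 with filterByExpr, 96 with no filter, 47 with the replicate block, 104 with DESeq2, 41 without the 3 mice with the highest Gpc3 or Cd24a, and 0 to 59 when mice were left out. The cause of these differences was not tested. The GC covariate was, per mouse, the rank correlation of log2 CPM (less its ZT mean) with transcript GC content. At 4 weeks it was -0.652 in Ctr replicate 3 of ZT17. In HFD mice it was -0.714 at ZT1, -0.72 at ZT13, -0.69 at ZT21 (all replicate 3) and -0.682 in replicate 2 of ZT17. The other mice of 4 weeks lay between -0.426 and 0.676, and the lowest at 16 weeks was -0.366. The fits of age and of the interaction had no such covariate.

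Among the members, the diet difference of Zhx2 at 4 weeks changed sign without ZT1 (-0.021) and ZT5 (-0.028) and spanned -0.051 to 0.068 when mice were left out, and that of Cd24a spanned -0.18 to 0.40, with -0.18 without replicate 2 and -0.023 without HFD replicate 2 of ZT9. The Cd24a interaction was 0.0027 with DESeq2 size factors, 0.010 with filterByExpr, 0.018 with no filter, 0.0073 with DESeq2 and 0.20 without the 3 mice, and -0.12 to 0.26 when mice were left out. The ZT range of Afp lost its call with no filter (1.07 and 0.88, adjusted p 0.0503 and 0.0696), with the cosine amplitude (0.34 and 0.16), at 16 weeks for the sum with Gm43449 counts (0.50), and in part when mice were left out (0.95 to 1.32 at 4 weeks, 0.65 to 1.13 at 16 weeks). That of Zhx2 at 4 weeks lost it with no filter (0.52) and spanned 0.42 to 0.61 when mice were left out, and its age effect spanned 0.082 to 0.17. The ZT range of Gpc3 at 4 weeks was called with no filter (1.16), the replicate block (1.24, adjusted p 0.0421) and DESeq2 (1.17). Genes called for ZT numbered 1648 to 4798 at 4 weeks and 3559 to 6085 at 16 weeks when mice were left out. Leaving out the 2 farthest mice changed the sign of r for Gpc3 and Zhx2 (0.0231) and Cd24a and Zhx2 (-0.0684) at 4 weeks and Afp and Zhx2 (0.0225) at 16 weeks, none of them called. Ctr and HFD mice of the same ZT and replicate number correlated from -0.152 to 0.265 at 4 weeks and from -0.0463 to 0.113 at 16 weeks. Those of different numbers correlated from -0.287 to 0.295 and from -0.201 to 0.206. The medians were -0.0144 and -0.00421 at 4 weeks, and 0.0488 and -0.00765 at 16 weeks. These ranges overlapped, so the numbers gave no clear pairing of Ctr with HFD mice. Whether mice of a replicate number shared anything else was not tested. The replicate block changed no other call of a member. Mice were left out by replicate number and, for diet, each in turn; for ZT, rhythm, age and the interaction the single mice left out were the 3 that stood apart, chosen, like the antisense sum and the marker relations, after seeing the data.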

Other observations

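The pancreatic signal of HFD replicate 2 of ZT9, aged 4 weeks, covered the whole list of 15 acinar genes. Ctrb1, a chymotrypsinogen, stood at 13900 CPM there and at most at 2 CPM in the other 69 mice, Cela2a, an elastase, at 8120 against 2.07 CPM, and Pnlip, pancreatic lipase, at 5720 against 0.642 CPM. Amy2b, a pancreatic amylase, was at 718 CPM in this mouse and had 0 counts in all others. Hepatocyte markers summed to 126900 CPM in the same library.

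HFD replicate 2 of ZT21 at 16 weeks, which had the highest Gpc3 of its age, also had 27.4 CPM of H19. The highest H19 value in the other 35 mice of 16 weeks was 0.792 CPM and their median was 0.0636 CPM.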
